A study of Mus musculus with 8 samples.

Results

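The 45 genes described here were lowered after 24 h of METTL3 depletion in mouse retinal organoids and had changed little at 8 h. They were chosen from the measured values, out of 11322 uniquely named genes tested at 24 h. A gene was included when its FPKM (fragments scaled to transcript length and library size) had a log2 ratio of -0.585 or lower at 24 h against 0 h, which is a 1.5-fold fall, with the deposited interval at 24 h below that at 0 h. Its log2 ratio at 8 h also had to lie between -0.4 and 0.4. Names of Zfp-numbered, ribosomal protein and histone genes were left out, and a gene needed at least 1 FPKM and 10 estimated counts in 1 of the conditions. By that choice every fall at 24 h is a property of the selection, and the values at 8 and 24 h are given as a description. All 45 genes passed the filter on low values at 1 h as well.

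The organoids were grown to day 6 from mouse Rx:GFP cells, which carry a GFP reporter of the eye field gene Rax. In all groups FKBP12F36V-HA, a degradation tag, was fused to the C-terminal end of METTL3 from both endogenous Mettl3 alleles. The 4 groups of 2 samples had 0, 1, 8 or 24 h of dTAG-13, the degrader compound, at 125 nM, and were collected together. The 0 h group is labelled as not treated, and whether it received solvent is not said, nor is the number of clones behind the cell line. The culture medium of all groups held knockout serum replacement and a supplement that the labels call AGN. For a gene and a time the tables give a single value that merges both samples. Its interval, shown in brackets throughout, has no stated level and reaches about 2.2 deposited standard deviations to each side. Spread between samples is therefore not visible, and no test across samples could be made. Totals were between 31361518 and 32562075 estimated counts per condition.

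METTL3 is the catalytic subunit of the complex that writes N6-methyladenosine (m6A) into messenger RNA as it is made. The mark is read by YTH-domain proteins and, for most transcripts, shortens the life of the RNA. At this stage a retinal organoid consists largely of optic vesicle and early optic cup progenitors, which express eye field transcription factors and are patterned by Wnt, BMP, FGF and retinoid signals.

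Of the eye field and retinal progenitor markers, 16 of 17 were tested, and their summed level was 1097 FPKM at 0 h and 1266 at 24 h. Rax was at 49.9 FPKM before and 78.6 at 24 h, and Pax6 at 126 and 130.5. Markers of other cells were present at lower sums: retinal neuron genes summed to 28.2 and 15.5 FPKM with 11 of 21 under 1 FPKM, surface ectoderm and lens genes to 101 and 66.1, and endothelium and blood genes to 26.7 and 18.9. The lower sum of the neuron list was carried by Tac1 and Gap43, without which it was 11.1 and 12.8 FPKM. Mesoderm genes summed to 8.66 and 11.6 FPKM, endoderm genes to 20.6 and 25.4, and neural crest genes to 16.3 and 18.5. Retinal pigment epithelium genes summed to 67.4 and 103.5 FPKM, with Pmel at 28.9 and 60.3, telencephalon and hypothalamus genes to 46.1 and 51.5, and midbrain, hindbrain and spinal cord genes to 35.8 and 30.8. Pluripotency genes summed to 685 FPKM at 0 h and 559 at 24 h, and to 484 and 449.7 without Dppa5a, which belongs to the 45 genes. In whole organoids, fewer cells of a type and less RNA per cell cannot be told apart, and the part of these markers in the falls was not tested. Mettl3 RNA stood at -0.01, 0.00 and -0.19 as log2 ratios after 1, 8 and 24 h, its intervals overlapping each time, and since the tag acts on the protein these values do not check the depletion.

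RefSeq promoters (250 bases before to 50 after the start, build GRCm38.p6) were matched for 34 of the 45 genes, with 48 promoters in all. Sequences are shown for 4 of them, written from 5′ to 3′ on the strand of the gene with the motif in capitals. Stra6 and Syt1 are shown because they are among the 20 lowest genes and hold CTTTGAT, the core of TCF/LEF sites, or TGATGNAA, the core bound by C/EBP and ATF factors such as ATF4. Herpud1 and Creld2 were picked after their values were seen, as genes of the endoplasmic reticulum (ER) with sequences known from the response to ER stress.
Stra6, chr9:58129099-58129398, plus strand: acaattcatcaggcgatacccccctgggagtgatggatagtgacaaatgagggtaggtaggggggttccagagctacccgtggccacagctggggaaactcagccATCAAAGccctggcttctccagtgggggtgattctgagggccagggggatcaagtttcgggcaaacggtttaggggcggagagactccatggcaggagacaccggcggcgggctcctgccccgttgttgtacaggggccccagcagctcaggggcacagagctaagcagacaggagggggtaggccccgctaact
Syt1, chr10:109009062-109009361, minus strand: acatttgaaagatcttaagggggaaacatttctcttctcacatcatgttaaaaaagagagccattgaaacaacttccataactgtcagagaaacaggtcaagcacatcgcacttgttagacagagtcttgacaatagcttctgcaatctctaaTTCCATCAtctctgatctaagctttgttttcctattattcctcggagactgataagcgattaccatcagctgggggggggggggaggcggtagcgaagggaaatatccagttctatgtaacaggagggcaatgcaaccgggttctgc
Herpud1, chr8:94386179-94386478, plus strand: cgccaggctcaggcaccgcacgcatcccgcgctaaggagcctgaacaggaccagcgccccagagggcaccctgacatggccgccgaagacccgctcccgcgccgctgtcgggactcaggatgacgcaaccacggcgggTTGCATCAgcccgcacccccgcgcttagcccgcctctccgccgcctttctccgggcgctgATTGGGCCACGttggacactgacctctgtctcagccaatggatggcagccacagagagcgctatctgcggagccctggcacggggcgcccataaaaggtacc
Creld2, chr15:88819396-88819695, plus strand: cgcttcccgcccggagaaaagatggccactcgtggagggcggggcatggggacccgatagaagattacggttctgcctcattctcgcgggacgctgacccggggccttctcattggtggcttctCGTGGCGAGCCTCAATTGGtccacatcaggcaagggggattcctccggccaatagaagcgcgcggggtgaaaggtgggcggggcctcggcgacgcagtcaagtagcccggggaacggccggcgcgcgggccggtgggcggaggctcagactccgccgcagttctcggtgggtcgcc

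In Stra6 the capitals are the reverse complement of CTTTGAT, starting 145 bases before the start site of that promoter. In Syt1 they are that of TGATGNAA, 97 bases before the start. Both genes also had other promoters among the 48, in which these motifs were not found. For Syt1 another promoter, and not the one shown, covers the annotated start of the gene. The first run of capitals in Herpud1, 112 bases before the start, is again the reverse complement of TGATGNAA. Its second run, 52 bases before the start, is ER stress response element II. In Creld2 the capitals are the reverse complement of the ER stress response element, 126 bases before the start. Both strands were searched, and each of these elements contains CCAAT on 1 strand. The composite core TGATGNAA was in 3 of the 48 promoters, of Crabp1, Herpud1 and Syt1, which is 6.25%, against 3.97% of 32851 promoters in all. CTTTGAT was in 2 of 48, of Slc7a1 and Stra6 (4.17% against 3.73%). Each ER stress element was in 1 of 48, against 0.119% of all promoters for the ER stress response element and 0.0365% for element II. CACGTG was found in 3 (6.25% against 7.15%), CCAAT in 20 (41.7% against 37.4%), GGGCGG in 25 (52.1% against 35.7%) and TATAAA in 3 (6.25% against 13.6%). Among promoters of the tested genes alone TGATGNAA was at 2.15%, CTTTGAT at 2.51%, CACGTG at 10.1%, CCAAT at 38.4%, GGGCGG at 64.2% and TATAAA at 6.74%. The ER stress response element was in 0.166% of these and element II in 0.0785%. These matches describe letters in a window.

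At 24 h, 177 of 11322 tested genes were called lower (1.56%), that is at least 1.5-fold with intervals apart. After the exclusions by name 171 remained, of which 126 had an 8 h ratio past the limit and 45 (0.397% of all tested) make up the set. Their log2 ratios at 24 h ran from -2.30 to -0.59 with a median of -0.89, against 0.01 for all tested genes, of which 48.6% were below 0, and 13 of 45 fell at least 2-fold. At 0 h their levels lay between 1.29 and 200.4 FPKM with a median of 12.7, close to the 14.3 of all tested genes. Estimated counts gave a fall of at least 1.5-fold for 44 of the 45, the exception being Necab2 at -0.57.

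The word "only" rests on the 8 h limit and not on an absence of change at 8 h. Of the 45 genes, 43 had a ratio below 0 at 8 h, with a median of -0.25, against 48.4% of all tested genes below 0 and a median of 0.01. None could be called at 8 h, since the 8 h limit lies inside the 1.5-fold change that a call needs. Of all tested genes 0.778% were called lower then and 3.83% higher. The median gene had 26.4% of its 24 h log2 fall at 8 h, and 15 had a ratio of -0.3 or lower. The comparisons share the 0 h libraries, so a high 0 h value lowers the ratio at every time. Between the tables of 8 and 24 h the 0 h FPKM differed 1.0035-fold for nearly every gene, so the treated values can be set side by side. The 24 h interval lay wholly below the 8 h interval for 21 of the 45 genes. Values at both times were used in the choice, and the share over all tested genes was not computed, so this count is a description. Rbmx (0.12) and Wnt8b (0.06) alone had a ratio above 0 at 8 h.

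**Figure D1:**
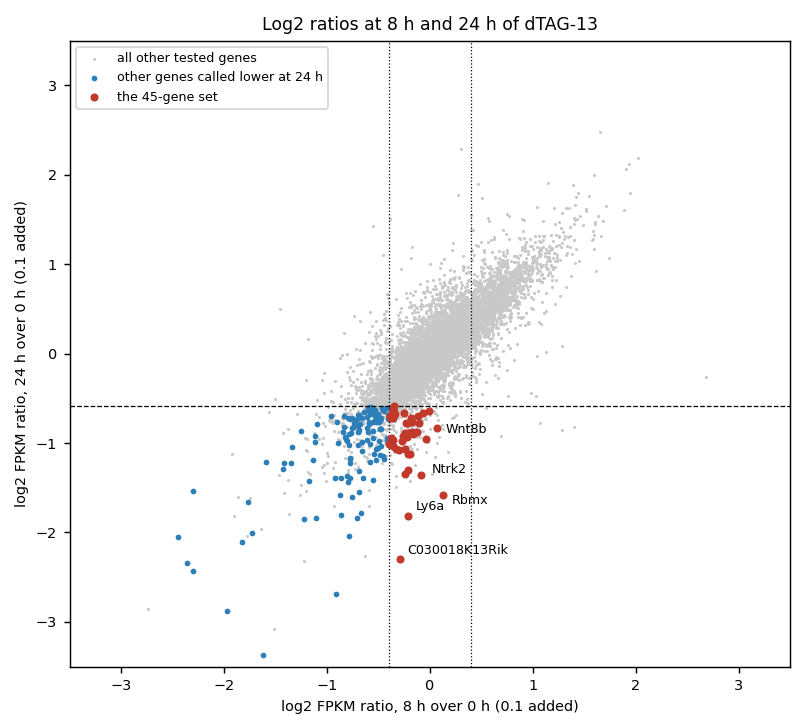
Log2 FPKM ratios at 8 h (x axis) and 24 h (y axis) against 0 h for 11322 tested genes, with the 45 genes of the set in red and the 126 other genes called lower at 24 h in blue; the dashed line is the 24 h limit of -0.585 and the dotted lines the 8 h limits of -0.4 and 0.4. The red points lie mostly left of 0, with Rbmx and Wnt8b to its right.

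The 1 h libraries were not used in the choice. At that time 30 of the 45 genes had a ratio below 0 (all tested genes: 50.1%), with a median of -0.06, and 1 was called lower against 0.206% of all tested genes. None was called higher (0.00895% of all). The gene called lower was Syt1, which encodes the calcium sensor of synaptic vesicle release. In the 1 h table its FPKM was 9.42 (7.33–11.5) without and 5.91 (4.51–7.302) with dTAG-13, then 8.04 (6.36–9.72) at 8 h and 3.73 (2.85–4.601) at 24 h, so it was low at 1 h, nearer its 0 h level at 8 h and lowest at 24 h. The description as lowered at 24 h alone therefore does not hold for Syt1. The next lowest at 1 h were Herpud1 (-0.47) and Rorb (-0.45), and the highest were Plppr5 (0.20), Gm26562 (0.20) and Hopx (0.17), all with overlapping intervals. The 0 h FPKM of the 1 h table differed from that of the 24 h table by 0.635 times for Dcc and 1.77 times for Gm26562, and the deposited spans of 15 of the 45 loci, these among them, differ between the tables. The part of the spans in the FPKM was not tested. For Dcc, Gm26562 and Hmx1, the 1 h value is given as a ratio only.

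**Figure D2:**
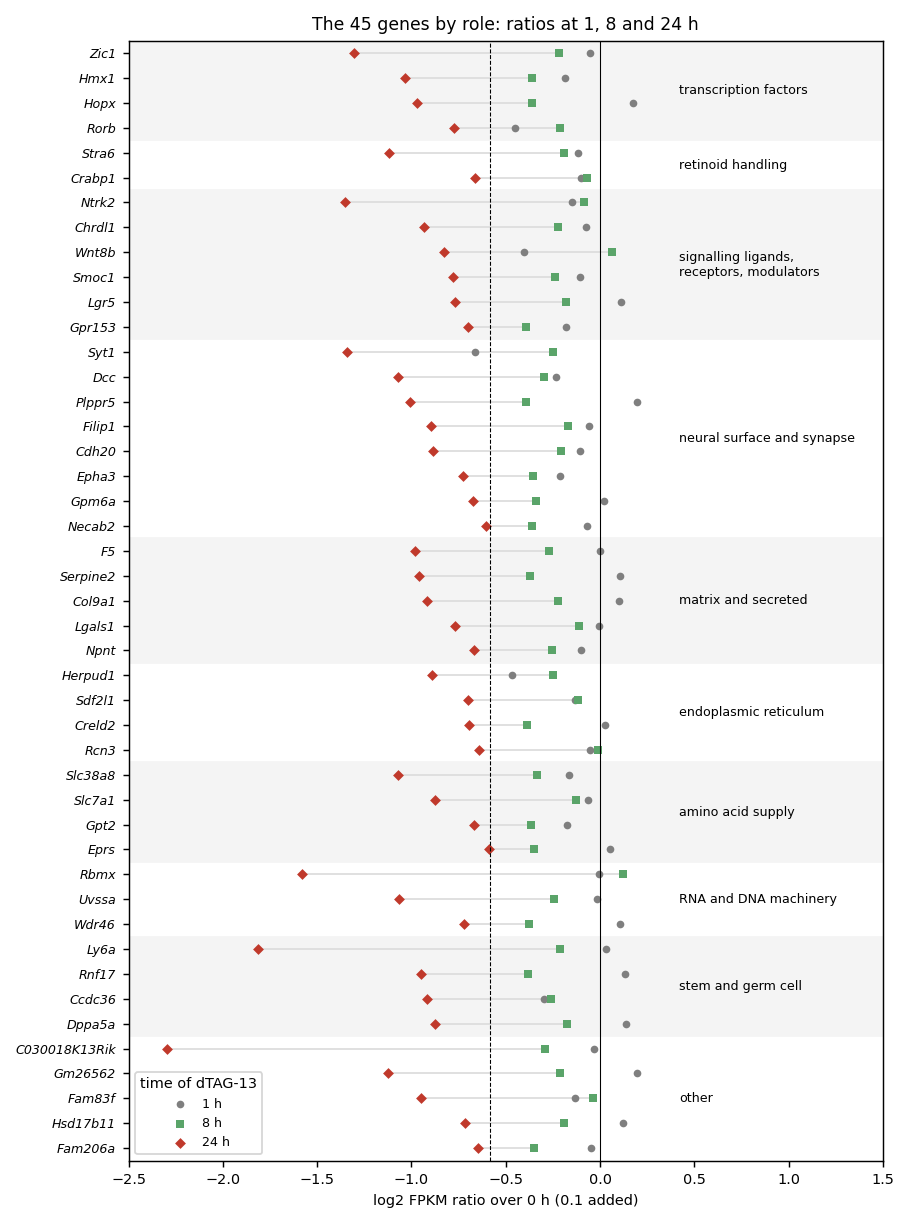
Log2 FPKM ratios over 0 h at 1 h (grey circles), 8 h (green squares) and 24 h (red diamonds) for each of the 45 genes, grouped by known role; the dashed line marks -0.585. The 24 h values run from -2.30 (C030018K13Rik) to -0.59 (Eprs), while the 8 h values lie between -0.39 and 0.12.

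Among the transcription factors, Zic1, a zinc finger factor of the dorsal neural tube and forebrain (chromosome 9, 91358058 to 91365810), fell from 14.2 (10.98–17.4) to 5.67 (4.24–7.11) FPKM at 24 h, a log2 ratio of -1.31, with 13.5 (10.2–16.7) at 1 h and 12.1 (9.47–14.8) at 8 h. Its level was close to that at 0 h at 1 h, and only the 24 h interval lay apart. The deposited loci of 8 of the 45 genes also hold another annotated coding gene, which makes their values less certain: Zic1 (with Zic4), Stra6 (Ccdc33), Syt1 (Gm5136), F5 (Selp), Lgr5 (A930009A15Rik), Ccdc36 (1700102P08Rik), Gpm6a (Wdr17) and Rcn3 (Fcgrt). Hmx1, a homeobox factor of the developing eye and ear (chromosome 5, 35389108 to 35399730), fell from 50.2 (39.7–60.8) to 24.5 (19.13–29.9) FPKM at 24 h, a log2 ratio of -1.03, with 38.9 (30.8–47.1) at 8 h, and its 1 h ratio was -0.19. Rorb, a nuclear receptor required for photoreceptor and horizontal cell fates (chromosome 19, 18930605 to 19111196), was low throughout and fell from 2.12 (1.64–2.605) to 1.199 (0.893–1.505) FPKM at 24 h, a log2 ratio of -0.77, with 1.502 (1.12–1.89) at 1 h and 1.81 (1.39–2.23) at 8 h. Hopx, a homeodomain protein that does not bind DNA, fell from 7.62 (5.6–9.63) to 3.84 (2.61–5.06) FPKM at 24 h, a log2 ratio of -0.97, with 8.43 (6.13–10.7) at 1 h and 5.89 (4.26–7.53) at 8 h. Hmx1 is the only one of the 45 genes on the list of eye field and retinal progenitor markers. Of the 16 tested genes of that list, 3 were called lower at 24 h, namely Hmx1, Aldh1a1 (-2.04) and Aldh1a3 (-1.60). Another 4 were called higher, namely Rax (0.66), Lhx2 (0.69), Mab21l1 (1.00) and Tbx2 (1.11). Of all tested genes 1.56% were called lower and 4.08% higher. Hmx1, Aldh1a1 and Aldh1a3 therefore moved against the median of the list, which was 0.30.

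Retinoid handling was represented by Stra6 and Crabp1. Stra6, the membrane receptor that takes up retinol from its carrier protein (chromosome 9, 58063788 to 58153996), fell from 19.9 (13.7–26.1) to 9.11 (6.25–11.97) FPKM at 24 h, a log2 ratio of -1.12, with 18.02 (12.7–23.4) at 1 h and 17.4 (11.5–23.2) at 8 h. Crabp1, a cytosolic protein that binds retinoic acid (chromosome 9, 54764748 to 54773110), was among the most abundant of the 45 genes. It fell from 190.3 (153–227) to 120.1 (96.4–144) FPKM at 24 h, a log2 ratio of -0.66, with 175 (138–211) at 1 h and 181 (146–215) at 8 h. Of the 11 tested genes of the retinoic acid list, 4 were called lower at 24 h and none higher, with a median of -0.59, members included. Of all tested genes 1.56% were called lower and 4.08% higher. Stra6 and Crabp1 were chosen by the rule for their fall, and 2 of the 9 other tested genes were called lower. These 2 were enzymes that make retinoic acid: Aldh1a3, with ratios of -0.76 at 8 h and -1.60 at 24 h, and Aldh1a1, with -0.79 and -2.04. Both were already outside the 8 h limit. The receptor Rarb had a ratio of -0.71, with overlapping intervals, while Crabp2, which also binds retinoic acid, was at -0.07 and the receptor Rara at 0.53. The list was chosen with earlier results of these data known.

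Of the set, 6 genes encode signalling ligands, receptors or extracellular modulators, a role assigned after the members were seen. Wnt8b, a Wnt ligand of the dorsal forebrain (chromosome 19, 44493472 to 44514273), fell from 4.19 (3.23–5.15) to 2.31 (1.72–2.91) FPKM at 24 h, a log2 ratio of -0.83, with 3.09 (1.42–4.76) at 1 h and 4.36 (3.38–5.35) at 8 h. The 1 h value of Wnt8b is less certain, since its deposited span there differs from that at 24 h. Its 1 h ratio was -0.41 by FPKM and -0.17 by estimated counts. Lgr5, the receptor of R-spondins that amplifies Wnt signals (chromosome 10, 115450311 to 115587780), fell from 4.19 (3.14–5.24) to 2.42 (1.73–3.101) FPKM at 24 h, a log2 ratio of -0.77, with 4.52 (2.91–6.13) at 1 h and 3.68 (2.76–4.597) at 8 h. These were the 2 genes called lower among 18 tested of the Wnt list, and none was called higher, with a list median of -0.11 and 0 of the 16 other tested genes called lower. Of its other genes, Nkd1 had a ratio of -0.68, Dkk1 of -0.84 and Axin2 of -0.33, with overlapping intervals, and Wnt5a was at 0.48. Ntrk2, the receptor of the neurotrophin BDNF (chromosome 13, 58806569 to 59133970), fell from 13.2 (10.1–16.2) to 5.09 (3.597–6.59) FPKM at 24 h, a log2 ratio of -1.35, with 11.7 (8.77–14.6) at 1 h and 12.4 (9.56–15.2) at 8 h. Its ratio at 8 h was -0.09, so nearly all of its fall came after 8 h. Chrdl1, a secreted BMP antagonist known from the retina, fell from 9.997 (7.94–12.1) to 5.196 (4.05–6.34) FPKM at 24 h, a log2 ratio of -0.93, with 9.35 (7.296–11.4) at 1 h and 8.53 (6.79–10.3) at 8 h. Smoc1, a matricellular protein of eye development that modulates BMP signals, fell from 20.2 to 11.7 FPKM (-0.78), and the orphan receptor Gpr153 from 7.89 to 4.81 (-0.70). On the list of BMP and SMAD targets, 3 of 14 tested genes were called higher at 24 h and none lower, and no gene was called lower on the FGF, Notch and Hedgehog lists.

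Another 8 genes act at the neural cell surface, the synapse or the cytoskeleton. Syt1, described above, fell from 9.598 (7.61–11.6) to 3.73 (2.85–4.601) FPKM at 24 h, a log2 ratio of -1.34. Dcc, the netrin receptor of growth cones, fell from 3.26 (2.46–4.06) to 1.496 (0.985–2.01) FPKM at 24 h, a log2 ratio of -1.07, with 2.62 (2.01–3.23) at 8 h. The 1 h ratio of Dcc was -0.24. Plppr5, a membrane protein that promotes filopodia, fell from 2.296 (1.74–2.85) to 1.09 (0.7805–1.399) FPKM at 24 h, a log2 ratio of -1.01, with 2.84 (2.105–3.57) at 1 h and 1.72 (1.28–2.15) at 8 h. The 24 h intervals of Syt1 and Dcc, but not that of Plppr5, were also below those at 8 h. Necab2, a neuronal calcium-binding protein, was the most abundant of them and fell from 59.2 (47.1–71.3) to 38.9 (31.03–46.9) FPKM at 24 h, a log2 ratio of -0.60, with 55.4 (43.7–67.2) at 1 h and 45.96 (36.8–55.1) at 8 h. This is near the edge of the rule. Cdh20, a type II cadherin, and Filip1, which binds filamin A and restrains neuronal migration, had ratios of -0.89 and -0.90. The ephrin receptor Epha3 had a ratio of -0.73 and the neuronal glycoprotein Gpm6a of -0.67. Of the marker list of retinal neurons and neurogenesis 6 genes were tested, of which 2 were called lower (Tac1 and Gap43) and 1 higher (Crx), and its summed level, with and without the former pair, is given above. The part of a change in neuron number in the values of the 8 genes was not tested.

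Genes of secreted and matrix proteins included Col9a1, a chain of type IX collagen (chromosome 1, 24177610 to 24252684), which fell from 50.04 (40.4–59.7) to 26.5 (21.3–31.7) FPKM at 24 h, a log2 ratio of -0.92, with 52.7 (41.97–63.5) at 1 h and 42.8 (34.6–50.9) at 8 h. Serpine2, an inhibitor of serine proteases, fell from 40.01 (31.9–48.1) to 20.6 (16.2–24.9) FPKM at 24 h, a log2 ratio of -0.96, with 42.3 (33.4–51.2) at 1 h and 30.8 (24.7–36.9) at 8 h. Lgals1, a secreted galectin, fell from 59.5 (47.1–71.8) to 34.8 (27.1–42.5) FPKM at 24 h, a log2 ratio of -0.77, with 58.2 (45.3–71.1) at 1 h and 54.8 (43.5–66.1) at 8 h. At 24 h these genes stood clearly below their 0 h intervals, and Col9a1 and Lgals1 also below those at 8 h. F5, coagulation factor V, fell from 4.29 (3.397–5.18) to 2.12 (1.65–2.6) FPKM at 24 h, a log2 ratio of -0.98, with 4.22 (3.29–5.16) at 1 h and 3.52 (2.79–4.26) at 8 h. Npnt, an integrin ligand of basement membranes, had a ratio of -0.67. Col9a1 was the only gene called lower among 28 tested of the extracellular matrix list, whose median was 0.10, and Vtn was called higher.

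**Figure D3:**
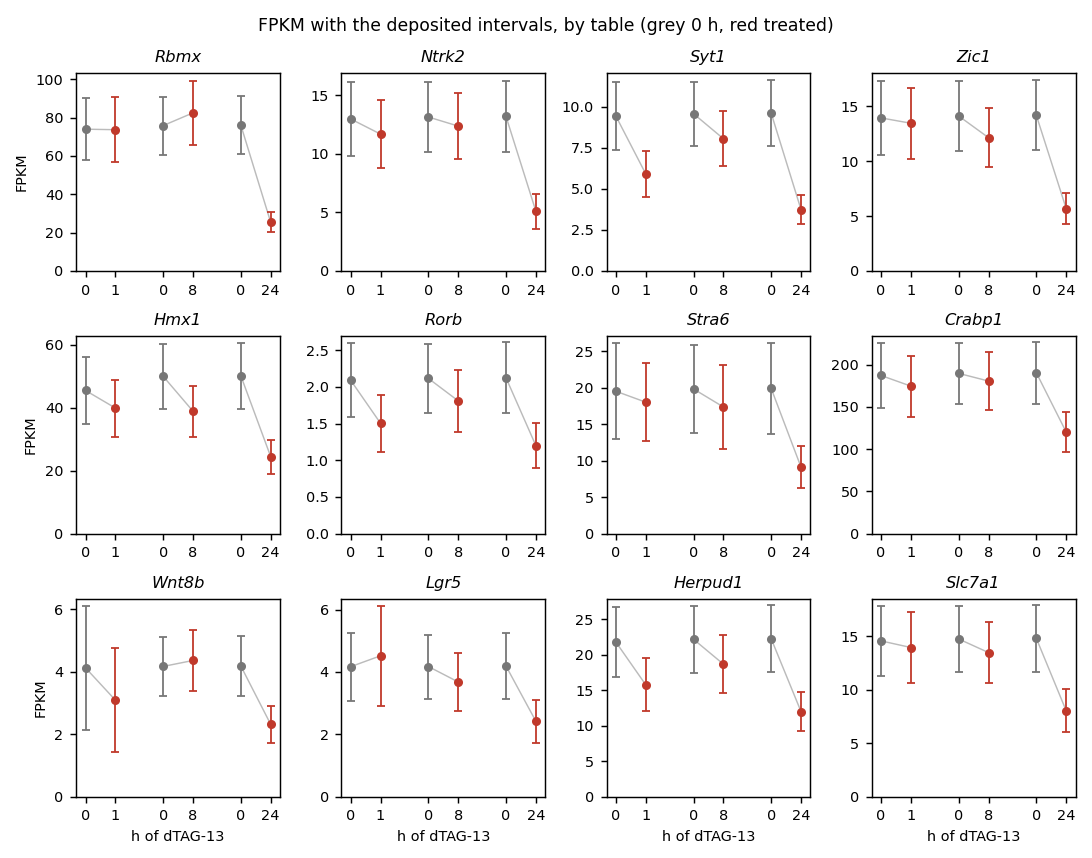
FPKM (y axis, from 0) with the deposited intervals for 12 of the 45 genes, each table's 0 h value in grey beside the value at 1, 8 or 24 h of dTAG-13 in red; each point combines 2 samples. In every panel the red 24 h interval lies below the grey 0 h interval, while at 1 h this holds for Syt1 alone and at 8 h for none.

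Proteins of the ER were Herpud1, Sdf2l1, Creld2 and Rcn3. Herpud1, which takes part in the degradation of misfolded ER proteins (chromosome 8, 94386438 to 94395377), fell from 22.3 (17.5–27.003) to 11.97 (9.23–14.7) FPKM at 24 h, a log2 ratio of -0.89, with 15.8 (12.02–19.5) at 1 h and 18.7 (14.6–22.8) at 8 h. Its value at 1 h was below that at 8 h, with an interval that overlapped that at 0 h. Sdf2l1, a component of the ER chaperone complex, fell from 38.4 (30.5–46.4) to 23.6 (18.4–28.7) FPKM at 24 h, a log2 ratio of -0.70, with 34.5 (26.8–42.1) at 1 h and 35.3 (28.03–42.5) at 8 h. Creld2, an ER protein induced by misfolding (chromosome 15, 88819646 to 88826683), fell from 42.9 (34.3–51.5) to 26.5 (20.95–32.02) FPKM at 24 h, a log2 ratio of -0.69, with 43.02 (33.9–52.2) at 1 h and 32.7 (26.1–39.3) at 8 h. Rcn3, a calcium-binding protein of the secretory pathway, fell from 42.4 (33.6–51.2) to 27.2 (20.7–33.6) FPKM at 24 h, a log2 ratio of -0.64, with 40.1 (30.9–49.4) at 1 h and 41.98 (32.2–51.7) at 8 h. On a list of 28 genes of ER stress and chaperones, written after these 4 genes had been seen, 26 were tested. Besides these 4, which the rule chose for their fall, 0 of the other 22 tested genes were called lower and none higher. The median of the list was -0.36, members included. The master chaperone Hspa5, at 507 FPKM and 499, had a ratio of -0.02, Pdia4 of 0.00 and Dnajb9 of 0.09, while Hyou1 was at -0.61, Pdia6 at -0.56 and Hsp90b1 at -0.52, all with overlapping intervals.

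Amino acid supply was represented by 4 genes. Slc7a1, the main importer of arginine and lysine (chromosome 5, 148327410 to 148399904), fell from 14.8 (11.7–17.9) to 8.01 (6.002–10.02) FPKM at 24 h, a log2 ratio of -0.88, with 13.9 (10.7–17.2) at 1 h and 13.5 (10.6–16.4) at 8 h. Gpt2, the mitochondrial alanine transaminase, fell from 24.6 (19.4–29.8) to 15.4 (12.02–18.9) FPKM at 24 h, a log2 ratio of -0.67, with 21.4 (16.7–26.1) at 1 h and 18.98 (15.02–22.9) at 8 h. Slc38a8, a glutamine transporter of the retina, fell from 7.65 (5.88–9.42) to 3.59 (2.66–4.52) FPKM at 24 h, a log2 ratio of -1.07, with 6.66 (4.86–8.46) at 1 h and 6.03 (4.65–7.401) at 8 h. Eprs, the tRNA synthetase of glutamate and proline, fell from 111 (89.4–133) to 73.8 (59.7–87.9) FPKM at 24 h, a log2 ratio of -0.59, with 113 (90.2–137) at 1 h and 86.7 (70.4–103) at 8 h. This was the smallest fall of all 45. Slc38a8 and Necab2 are neighbours on chromosome 8, with 6959 bases between their loci. Of 36 tested genes on the list of amino acid responses driven by ATF4, 7 were called lower at 24 h and 1 higher, with a median of -0.43, members included. Over all tested genes these shares were 1.56% and 4.08%. Slc7a1 and Gpt2 were chosen by the rule for their fall, and 5 of the 34 other tested genes were called lower. Besides Slc7a1 and Gpt2 these were Slc7a11 (-2.69), Slc7a3 (-1.12), Phgdh (-0.97), Gars (-0.75) and Asns (-0.73), whose 8 h ratios of -0.92, -0.54, -0.62, -0.54 and -0.51 were past the limit. Ddit4, a stress-induced inhibitor of mTORC1, was the gene called higher (0.70). A list of 21 tRNA synthetases, written after Eprs had been seen, had 19 tested genes. Of these 6 were called lower and none higher, with medians of -0.40 at 8 h and -0.55 at 24 h, Eprs included. Without Eprs, which the rule chose, 5 of the 18 other tested genes were called lower. Eprs thus stood near the median of the synthetases at both times, with an 8 h ratio of -0.35 inside the limit, where Gars, Iars (-0.53), Lars (-0.47) and Farsa (-0.45) were outside it. Mars missed the limit at -0.40. The ATF4 list holds it under the name Mars1, which was not found, so its call as lower at 24 h (-0.68) is not among the 7.

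**Figure D4:**
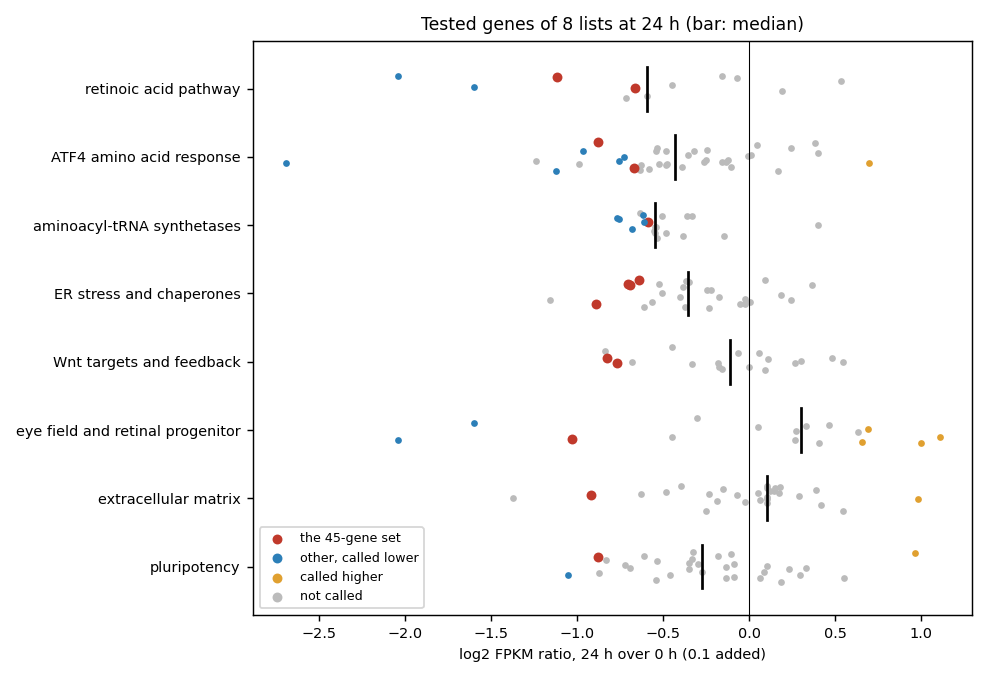
Log2 FPKM ratio at 24 h (x axis) for each tested gene of 8 lists, in red where it belongs to the 45 genes, in blue for other genes called lower, in orange for genes called higher and in grey for genes not called; black bars are list medians. The medians run from -0.59 (retinoic acid) to 0.30 (eye field), and the lists of ER stress and tRNA synthetases were written after members had been seen.

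Rbmx had the third-lowest ratio of the set and the lowest among abundant genes. It encodes an RNA-binding protein of the hnRNP G family that acts in splicing and is known to bind m6A-modified RNA (chromosome X, 57383530 to 57393036). It fell from 76.1 (60.8–91.3) to 25.4 (20.2–30.6) FPKM at 24 h, a log2 ratio of -1.58, with 73.7 (56.8–90.5) at 1 h and 82.5 (65.7–99.2) at 8 h. Its estimated counts went from 5083 to 1659 in the 24 h table. Its ratios were -0.01 at 1 h and 0.12 at 8 h, so the fall was seen at 24 h and not at 8 h. Its retrogene copy Rbmxl1 moved the other way: it was at 111 FPKM (89.8–132) at 0 h, rose to 185 (151–219.9) by 8 h (0.74) and was at 199.6 (162–237) after 24 h (0.85). The summed estimated counts of both loci were 10239 at 0 h and 10940 at 24 h, a log2 ratio of 0.10, and the share of Rbmx in the sum went from 49.6% to 15.2%. At 8 h the sum had a ratio of 0.44. How the authors assigned reads that fit both copies is not given in the sources used here, so the fall of Rbmx and the rise of Rbmxl1 are uncertain as separate values. The related Rbmxl2 had a ratio of -0.56 and Rbmx2 of 0.17 at 24 h, with overlapping intervals.

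Of the remaining genes of the nucleus, Uvssa, a factor of transcription-coupled DNA repair, fell from 5.49 (4.31–6.66) to 2.57 (1.98–3.17) FPKM at 24 h, a log2 ratio of -1.06, with 5.17 (4.01–6.33) at 1 h and 4.598 (3.62–5.58) at 8 h. Wdr46, a nucleolar scaffold of ribosome assembly, had a ratio of -0.72. Genes known from stem and germ cells were Dppa5a, Ly6a, Rnf17 and Ccdc36. Dppa5a, an RNA-binding protein of pluripotent cells (chromosome 9, 78367052 to 78368177), was the most abundant of the set and fell from 200.4 (161–240.0) to 109 (86.7–131) FPKM at 24 h, a log2 ratio of -0.88, with 217 (171–262) at 1 h and 177 (142–212) at 8 h. On the pluripotency list, 31 genes were tested, Dppa5a and Tdgf1 were called lower, Tbx3 higher, and the median was -0.27. Ly6a, the surface antigen Sca-1, fell from 3.75 (2.39–5.11) to 0.995 (0.283–1.71) FPKM at 24 h, a log2 ratio of -1.81, with 3.77 (2.4–5.14) at 1 h and 3.21 (2.01–4.42) at 8 h. It went from 77.8 to 19.9 estimated counts, the fewest of the set at 24 h. Rnf17, a Tudor-domain protein of spermatogenesis, fell from 3.37 (2.55–4.197) to 1.702 (1.005–2.399) FPKM at 24 h, a log2 ratio of -0.95, with 3.78 (2.602–4.96) at 1 h and 2.56 (1.71–3.41) at 8 h. Ccdc36, which takes part in meiotic DNA breaks, fell from 2.38 (1.72–3.04) to 1.21 (0.815–1.61) FPKM at 24 h, a log2 ratio of -0.92, with 1.92 (1.32–2.52) at 1 h and 1.96 (1.38–2.54) at 8 h.

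The lowest ratio of all belonged to the long non-coding RNA C030018K13Rik (chromosome 5, 64477008 to 64483967), which fell from 4.26 (1.798–6.72) to 0.787 (0.226–1.35) FPKM at 24 h, a log2 ratio of -2.30, with 4.06 (1.87–6.25) at 1 h and 3.45 (1.7–5.21) at 8 h. Its estimated counts had log2 ratios of -0.88 at 8 h and -2.82 at 24 h, so by counts it was outside the 8 h limit, as were Rnf17 (-0.66) and Plppr5 (-0.43). Gm26562, the other non-coding RNA, fell from 1.29 (0.839–1.74) to 0.537 (0.321–0.753) FPKM at 24 h, a log2 ratio of -1.12, with 1.09 (0.7502–1.44) at 8 h. By estimated counts its 8 h ratio was 0.20, above 0. Fam83f fell from 1.896 (1.37–2.42) to 0.932 (0.618–1.25) FPKM at 24 h, a log2 ratio of -0.95, with 1.69 (1.16–2.21) at 1 h and 1.84 (1.34–2.34) at 8 h. Hsd17b11, a dehydrogenase of lipid droplets, and Fam206a had 24 h ratios of -0.72 and -0.65.

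At the edges of the rule, Eprs, Necab2 and Rcn3 had the smallest falls that were included. The intervals and not the ratio set this edge: 0 genes had a 24 h interval below that at 0 h, an 8 h ratio inside the limit and a fall under 1.5-fold, whereas 137 fell 1.5-fold with an 8 h ratio inside the limit but overlapping intervals. The nearest of these were Tfpi (-0.65), Col1a1 (-1.37) and Cdk2ap2 (-0.66). Inside this edge, Rcn3 was included by a narrow gap, with a 24 h upper bound of 33.56 and a 0 h lower bound of 33.57 FPKM. The same held for Hsd17b11, at 5.248 and 5.255 FPKM. Inside the 8 h limit, Plppr5, Gpr153 and Creld2 were the closest at -0.39 each, and just outside it were Ier2, Ubxn2b and Mars at -0.40 each. Values on either side of that limit differ by far less than their intervals.

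Gene structure was not used in the choice. Exon junctions were counted per kb of coding sequence in 1 GENCODE M21 transcript per gene, and this density had a median of 5.97 over 43 protein-coding genes of the set. It was 6.17 over 10954 tested genes, 6.43 over 117 other genes called lower at 24 h and 1.74 over 456 genes called higher. The quartiles of the set were 4.77 and 7.06, with Hmx1 (1.00), Filip1 (1.10) and Zic1 (1.49) lowest and Col9a1 (13.4) highest. In this measure the set thus lay near all tested genes, and the genes called higher lay lower. GGACT, the core most often methylated by METTL3, occurred a median of 0.897 times per kb of transcript in the set, against 1.05 in all tested genes. The wider consensus DRACH occurred 19.8 times per kb against 20.02, and the longest internal exon had a median of 246.5 bases against 216. Which of these sites carry m6A was not measured here, and no test is attached to these differences.

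**Figure D5:**
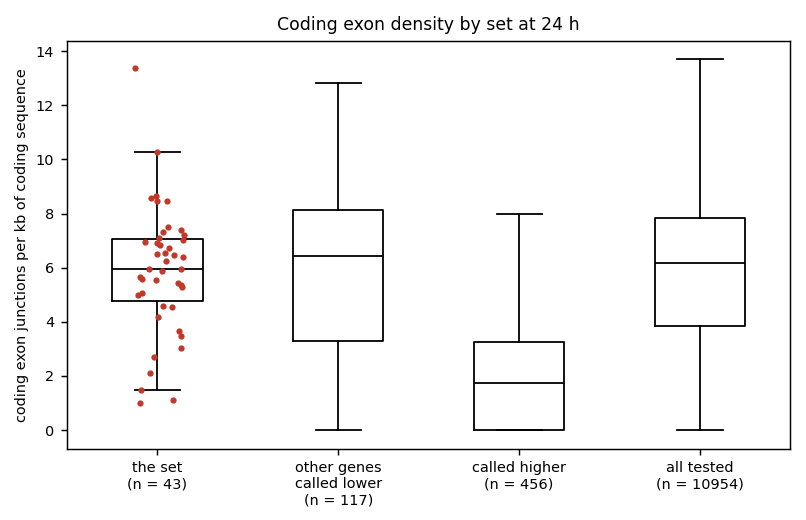
Coding exon junctions per kb of coding sequence (y axis) for the set, the other genes called lower at 24 h, the genes called higher and all tested genes; boxes span the quartiles with the median as a line, whiskers reach the last value within 1.5 box lengths, points beyond the whiskers are left out except for the set, where each red point is a gene. The medians are 5.97, 6.43, 1.74 and 6.17.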

How the data were processed

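The tables were deposited by the authors, per the file headers, as pairs for 0 h against 1, 8 and 24 h, 1 table with FPKM, interval bounds and a fit status, the other with estimated counts and their variance. Per the submitters' processing notes, Cufflinks 2.2.1 and Cuffdiff and the build mm10 were used. The aligner, the annotation, the use of strand, the scaling and the level of the interval are not given in the sources used here. Every column combines 2 samples, so no test across samples was run. Samples were grouped by their titles; a 2 h treatment that the labels' protocol also names was not analysed here. Per the labels, duplicates had separate library preparations, and separate cultures are not stated.

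Ratios were computed within a table on the log2 scale after adding 0.1 to both FPKM values, so that changes of weakly expressed genes come out too small. Loci without a name (4904 of 35541, holding 1.07% of the estimated counts at 24 h) and with several names (637) were not used. A gene was called when it changed at least 1.5-fold and the deposited intervals were apart, a rule that gives no p-value and whose variance is the authors' model. The members and lists were chosen with earlier results of these data known, and roles, the ER and tRNA synthetase lists and the ER motifs after the members were seen. Values with intervals were given for the 20 lowest genes at 24 h, the 10 most abundant, list members, genes at the thresholds and the 3 lowest and highest at 1 h. Coordinates and transcripts are from GENCODE M21 (GRCm38), whose genes overlapped the loci of all 45 names. The rule was tried on simulated tables whose falls were larger than most of those here, so the recovery of smaller falls was not checked. Alternatives changed the pseudocount, filters, unit, centring, thresholds and intervals. Python 3.11.15, pandas 2.3.3 and numpy 2.4.6 were used. A gene of the retinoic acid list is not reported here by name.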

Additional observations from a re-analysis of the deposited data

How the results depend on the processing

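Under the main settings 28 of 377 tested genes of the lists were called lower at 24 h (7.43%), 9 of them members, against 1.56% of all tested genes. Members were chosen for that fall and the lists with earlier results known, so these shares are a description only. Mars, listed as Mars1, is not among the 28. With a 2-fold threshold 13 genes met the rule, of which 10 were below 0 at 1 h and 0 were called lower then. Of the list genes 11, in place of 28, were called lower at 24 h. An 8 h limit of 0.25 left 25 genes, 19 of them below 0 at 1 h. Overlapping 8 h intervals in place of the limit gave 111 genes, 68 of them below 0 at 1 h. Without the intervals 182 genes met the rule, with 110 below 0 and 6 called lower at 1 h. Then 50 of the 377 list genes were called lower at 24 h. The shares of all tested genes called lower under these alternatives were not computed. Without the count filter 2 of 46 genes were called lower at 1 h. The changes in the number of genes that met the rule follow from its construction, which did not use the 1 h libraries. Under the other alternatives the number of genes lay between 32 (at least 5 FPKM) and 48 (pseudocount of 1 FPKM, which shared 40 of the 45). By estimated counts 43 genes met the rule, 41 of them shared; C030018K13Rik, Rnf17, Plppr5 and Necab2 did not. The median exon density of the set moved by less than its spread between genes under every alternative. None of the 45 genes changed direction at 24 h under any alternative, but they were chosen for that fall, so this lends it no support. Leaving out a replicate was not run, since the tables combine them. No paired analysis was possible because the columns carry no replicate number. Depth limits Ly6a most, with 19.9 estimated counts at 24 h.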
